A study of Mus musculus with 3 samples.

Results

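Growth factors of the FGF, HGF, PDGF and EGF families reach muscle precursors through receptor tyrosine kinases, and the 10 genes examined here are 6 such receptors (Fgfr1, Fgfr4, Met, Pdgfra, Pdgfrb and Egfr) and 4 ligands (Fgf2, Fgf7, Hgf and Hbegf). They were chosen by symbol, all 10 are among the 22068 genes listed for each library, and 9 of them had a mean of at least 1 RPKM over the 3 libraries. RPKM is a read count scaled to the length of the gene and to all mapped reads of the library, so that levels of different genes can be set side by side. The cells were C2C12, a mouse myoblast line that fuses into myotubes when serum is withdrawn. Stable lines were infected with a lentivirus carrying Linc-RAM (overexpression), with one carrying a short hairpin RNA against Linc-RAM (knockdown) or with the empty vector (control), were all selected with blasticidin, and were all harvested for polyadenylated RNA after 12 h in medium with horse serum. Linc-RAM, a long non-coding RNA of muscle, was driven by a CMV promoter in the study's overexpression vector. Not given in the sources used here is whether a line was 1 clone or a pool, nor which hairpin it carried. Since a condition was sequenced once, no difference below could be checked against replicates, and the overexpression and knockdown ratios share their control.

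Ligand binding brings receptor chains together in pairs, which phosphorylate each other and switch on the RAS and ERK cascade and the PI3K and AKT pathway. In myoblasts FGF2 and HGF are known to sustain proliferation and to hold back differentiation, and HGF, through its receptor MET, wakes quiescent satellite cells. PDGF receptors mark mesenchymal cells and are present on cultured myoblasts, and EGFR is the receptor of EGF and of heparin-binding EGF-like growth factor, the product of Hbegf.

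Reads behind the RPKM values were recovered as lower estimates, with library totals of 2105513 reads for overexpression, 1878146 for knockdown and 5130481 for the control. Intervals given with a ratio are exact (Clopper-Pearson, 95%), come from these reads, cover counting error only and compare libraries, not conditions. Linc-RAM itself, listed as 2310015B20Rik, had 1 read with overexpression (1.07 RPKM) and was listed at 0 with knockdown and in the control, so it does not check the labels. Of 8 markers of the myogenic lineage 7 had a mean of at least 1 RPKM, with summed levels of 609, 240 and 398 RPKM in the overexpression, knockdown and control libraries, of which Des alone gave 386, 145 and 291 RPKM. With overexpression all 7 were higher than in the control, and with knockdown 3 were higher and 4 lower. The 11 markers of early muscle differentiation summed to 140, 54.5 and 79.4 RPKM, while Myh3 and Ckm were listed at 0 in all 3 libraries. Fibroblast and tenocyte markers (6 of 11 with a mean of at least 1 RPKM; Lum, Thy1 and Tnmd at 0 throughout) summed to 373, 421 and 471 RPKM, and with overexpression Col1a1 (0.410 of the control), Postn (0.503) and Col1a2 (0.688) were lower, while the ratios of Col3a1, Scx and Dcn were 1.03, 1.21 and 3.86. Neuronal and glial markers (5 of 12 with such a mean; Snap25, Elavl3 and Gfap at 0 throughout) summed to 175, 35.1 and 119 RPKM. The 9 endothelial and blood markers summed to between 0.737 and 2.24 RPKM, with Ptprc and Kdr at 0 throughout, and of 5 epithelial markers only Krt14 was above 0. Muscle, fibroblast and neuronal markers thus differed between the libraries together with the growth factor genes, and their part in the results was not tested. In such bulk RNA, fewer cells that express a gene and less RNA per cell cannot be told apart.

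Promoter windows are shown for 3 receptors, Egfr because it was the only receptor at least 2-fold below the control with overexpression among those that passed the filter, and Met and Pdgfra because they lay above the control with knockdown (all 3 were picked by their values, Met after these were seen). The window of the ligand Fgf2, also at least 2-fold lower with overexpression, is not shown. They are RefSeq reference sequences of the GRCm38.p6 build, from 250 bases before to 50 after the annotated start, and were not read from these cells. Capitals mark matches, on either strand, to the E-boxes CAGCTG and CAGGTG bound by myogenic factors such as MyoD, to the AP-1 site TGANTCA or to the ETS motif CCGGAAGT.
Met (chr6:17463707-17464006, forward strand): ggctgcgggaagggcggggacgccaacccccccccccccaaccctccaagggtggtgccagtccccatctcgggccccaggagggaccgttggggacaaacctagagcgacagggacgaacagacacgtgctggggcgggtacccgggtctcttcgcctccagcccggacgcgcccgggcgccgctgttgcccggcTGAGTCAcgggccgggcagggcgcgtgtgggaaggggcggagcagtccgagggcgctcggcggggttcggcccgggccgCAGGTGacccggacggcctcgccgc
Pdgfra (chr5:75152001-75152300, forward strand): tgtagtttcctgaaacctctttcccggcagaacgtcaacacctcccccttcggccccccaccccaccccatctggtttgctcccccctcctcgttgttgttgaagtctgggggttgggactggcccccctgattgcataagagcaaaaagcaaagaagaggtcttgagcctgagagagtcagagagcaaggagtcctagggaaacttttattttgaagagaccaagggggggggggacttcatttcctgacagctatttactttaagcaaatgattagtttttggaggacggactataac
Egfr (chr11:16751953-16752252, forward strand): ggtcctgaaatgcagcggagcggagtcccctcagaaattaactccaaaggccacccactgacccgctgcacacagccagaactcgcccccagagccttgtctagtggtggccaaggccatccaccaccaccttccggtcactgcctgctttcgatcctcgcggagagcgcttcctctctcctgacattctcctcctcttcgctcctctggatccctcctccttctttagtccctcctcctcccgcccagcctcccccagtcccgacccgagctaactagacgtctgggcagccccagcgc
The window of Met held 1 AP-1 match, starting at base 197, and 1 CAGGTG match, starting at base 276, and those of Pdgfra and Egfr held none of the 4 motifs. Of the 10 genes, 7 had a window in the table (8 windows, 2 of them for Hgf), and Met was the only one with a match. Over all 32851 windows in the table, 16.3% held CAGCTG, 20.2% CAGGTG, 7.81% TGANTCA and 3.89% CCGGAAGT. A match describes the letters of the window and is not a binding site, and a window without one says nothing of the factors.

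Among the receptors, Pdgfrb and Fgfr1 had the highest levels, and with overexpression they differed from the control in opposite directions. Pdgfrb, the receptor of PDGF-B (chromosome 18 of mm9, 61204804 to 61244715), was at 30.7 RPKM with overexpression, 48.1 with knockdown and 58.9 in the control (350, 489 and 1636 reads). Fgfr1, the main FGF receptor of myoblasts (chromosome 8, 26624126 to 26686186), was at 29.7, 16.4 and 21.8 RPKM in the same order (313, 154 and 560 reads). The control library thus had the highest Pdgfrb level, and the overexpression library the lowest Pdgfrb and the highest Fgfr1 level. With overexpression Pdgfrb stood at 0.521 of the control (interval 0.463 to 0.585) and Fgfr1 at 1.36 (1.18 to 1.57). With knockdown Pdgfrb stood at 0.816 (0.737 to 0.904) and Fgfr1 at 0.751 (0.624 to 0.899). Fgfr1 was therefore above the control in one line and below it in the other, whereas Pdgfrb was below it in both. The ratio of Pdgfrb to Fgfr1 within a library, a pair chosen after both levels were seen and so a restatement of them that no scaling can alter, was 1.03 with overexpression, 2.94 with knockdown and 2.70 in the control. Relative to the control this within-library ratio was 0.383 (exact interval 0.318 to 0.460) with overexpression and 1.09 (0.882 to 1.34) with knockdown. Of the summed RPKM of the 6 receptors (73.6, 89.2 and 98.5 RPKM), Fgfr1 took 40.3% with overexpression, 18.4% with knockdown and 22.1% in the control.

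**Figure D1:**
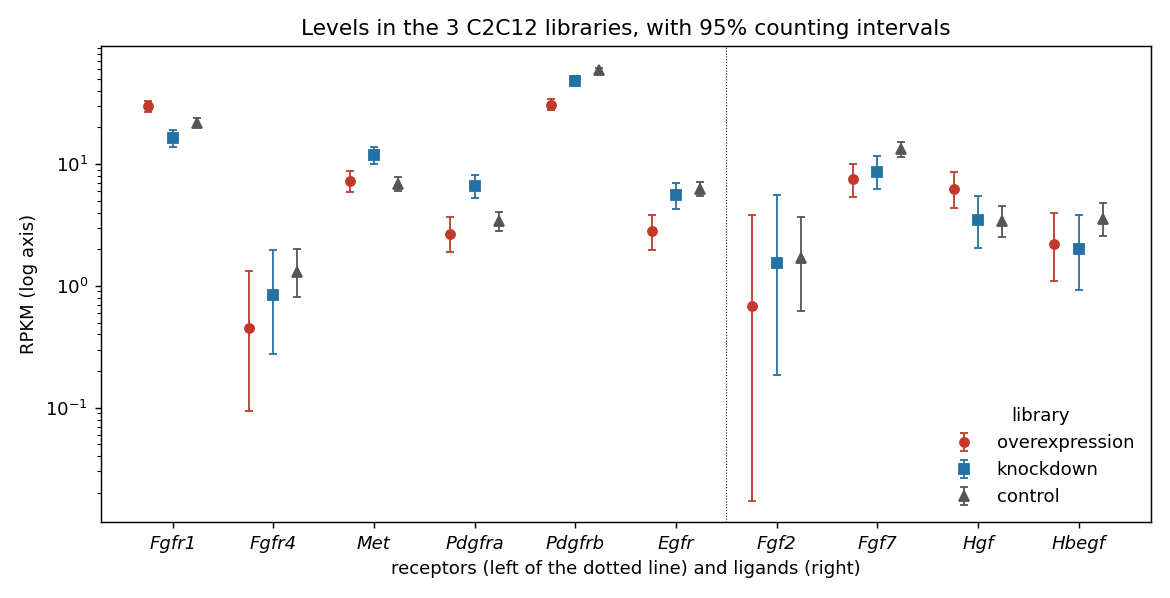
RPKM (log axis) of the 6 receptors and 4 ligands in the overexpression (red circles), knockdown (blue squares) and control (grey triangles) libraries, 1 library each, with exact Poisson 95% intervals from the recovered reads. Pdgfrb and Fgfr1 lie at 16.4 RPKM or more in all 3 libraries, and Fgfr4 and Fgf2 rest on so few reads that their bars overlap.

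Met and Pdgfra were the receptors with more RNA in the knockdown library. Met (chromosome 6, 17413800 to 17523980) was at 7.28 RPKM with overexpression, 11.8 with knockdown and 6.92 in the control (102, 147 and 236 reads). Pdgfra, the PDGF receptor that binds PDGF-A (chromosome 5, 75548316 to 75594229), was at 2.68, 6.56 and 3.39 RPKM (38, 83 and 117 reads). In both genes the knockdown library was the highest, and the overexpression and control libraries lay close together. Ratios to the control with knockdown were 1.70 for Met (1.38 to 2.10) and 1.94 for Pdgfra (1.44 to 2.59), just under 2-fold. With overexpression they were 1.05 for Met (0.827 to 1.33) and 0.791 for Pdgfra (0.534 to 1.15), and no difference was detectable at this depth. The level of Pdgfra relative to Pdgfrb within a library, also a pair chosen after the values were seen, was 0.0872 with overexpression, 0.136 with knockdown and 0.0575 in the control, which is 1.52 times the control with overexpression (1.01 to 2.25) and 2.37 times with knockdown (1.74 to 3.23).

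Egfr and Fgfr4 were lowest with overexpression. Egfr (chromosome 11, 16652206 to 16818161) was at 2.80 RPKM with overexpression, 5.54 with knockdown and 6.24 in the control (38, 67 and 206 reads). The overexpression library stood apart and the other two were near each other. The ratio to the control was 0.449 with overexpression (0.309 to 0.638) and 0.888 with knockdown (0.664 to 1.18). Fgfr4, an FGF receptor of developing and regenerating muscle (chromosome 13, 55254001 to 55270120), had only 3, 5 and 21 reads, which gave 0.453, 0.846 and 1.30 RPKM. Its mean was below 1 RPKM, and it was left out of the counts. The intervals of its ratios included 1, at 0.348 with overexpression (0.0665 to 1.17) and 0.650 with knockdown (0.192 to 1.77).

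Of the ligands, Hgf had its highest level and Fgf7 its lowest in the overexpression library. Neither level differed beyond counting error from that with knockdown, at ratios of 1.78 (0.987 to 3.34) for Hgf and 0.871 (0.556 to 1.37) for Fgf7. Hgf (chromosome 5, 16059368 to 16125257) was at 6.21 RPKM with overexpression, 3.48 with knockdown and 3.40 in the control (36, 18 and 48 reads), and its ratios were 1.83 (1.15 to 2.87) and 1.02 (0.561 to 1.79). Fgf7, known as keratinocyte growth factor (chromosome 2, 125860394 to 125916921), was at 7.47, 8.57 and 13.2 RPKM (42, 43 and 181 reads). Its ratio was 0.565 with overexpression (0.394 to 0.795) and 0.649 with knockdown (0.454 to 0.909), so Fgf7, like Pdgfrb, lay below the shared control in both lines. Fgf7 ranked first of the 4 ligands in each library and took 45.1%, 54.9% and 60.5% of their summed RPKM (16.6, 15.6 and 21.8 RPKM). Its receptor is the epithelial form of FGFR2, and Fgfr2, named after its values were seen, had 4, 5 and 4 reads in the overexpression, knockdown and control libraries (0.355, 0.498 and 0.146 RPKM).

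Hbegf and Fgf2 were low and had few reads. Hbegf (chromosome 18, 36664583 to 36675459, reverse strand) was at 2.20 RPKM with overexpression, 2.02 with knockdown and 3.53 in the control (11, 9 and 43 reads). Neither ratio, 0.623 (0.290 to 1.23) nor 0.572 (0.245 to 1.19), left counting error. Fgf2, basic fibroblast growth factor (chromosome 3, 37211441 to 37304299), was at 0.683, 1.53 and 1.68 RPKM, from at least 1, 2 and 6 reads. Its ratio of 0.406 with overexpression passed 2-fold, but its interval of 0.00883 to 3.35 spanned the control. Annotated exons of Fgf2 share 242 bases with Nudt6 on the opposite strand, 55 with Cetn4 on that strand and 32 with Bbs12 on its own strand. Since it is not stated whether the counting used strand, Fgf2 reads may be partly those of its neighbours. Of the exons of Fgfr1, 125 bases are shared with Gm16159 on the opposite strand.

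With overexpression 2 of the 9 genes that passed the filter were at least 2-fold lower than the control (Egfr and Fgf2), against 3.47% of 10165 genes, and 0 were at least 2-fold higher, against 3.64%. Intervals lay below 1 for 3 of 9 (Pdgfrb, Egfr and Fgf7), against 8.61% of all genes, and above 1 for 2 of 9 (Fgfr1 and Hgf), against 9.4%. More reads give narrower intervals. Median reads of the 10 genes were 38, 55 and 149 in the overexpression, knockdown and control libraries, against 37, 32 and 88 for all genes that passed the filter. The shares of all genes with such intervals, here and below, are thus not a like-for-like background. The median log2 ratio of the 9 was −0.68, with 6 below the control and 3 above, and that of all genes was 0.00 (10147 genes). With knockdown 0 of 9 were at least 2-fold higher, against 3.38% of genes, and 0 were at least 2-fold lower, against 4.19%. Intervals lay above 1 for 2 (Met and Pdgfra), against 8.99%, and below 1 for 3 (Fgfr1, Pdgfrb and Fgf7), against 10.4%. The median log2 ratio was −0.17, again with 6 below the control and 3 above, and that of all genes was −0.01. The 5 receptors that passed the filter had medians of −0.34 and −0.17 with overexpression and knockdown, and the 4 ligands −0.75 and −0.38, while both groups held genes on either side of the control. The call of Fgf2 rests on few reads (at least 1 with overexpression), and neither Egfr nor Fgf2 was at least 2-fold lower once 1 RPKM was added to each value.

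**Figure D2:**
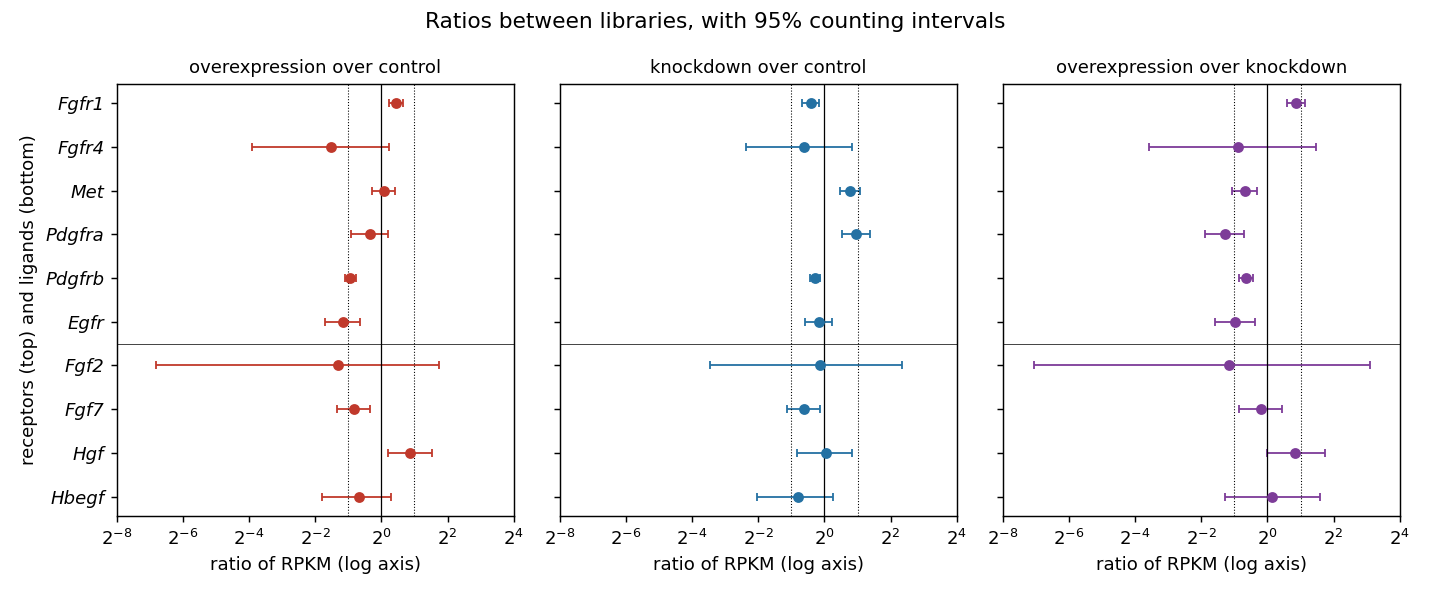
Ratios of RPKM (log axis) for 3 pairs of libraries, with exact 95% counting intervals from the recovered reads; solid lines mark 1, dotted lines 2-fold either way, and the horizontal line divides receptors from ligands. With overexpression Egfr (0.449) and Pdgfrb (0.521) lie to the left and Hgf (1.83) to the right, and with knockdown Met (1.70) and Pdgfra (1.94) lie to the right.

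The direct ratio of overexpression to knockdown does not use the control. Of the 9 genes, 2 were at least 2-fold lower with overexpression (Pdgfra and Fgf2), against 5.11% of 10146 genes, and 0 were at least 2-fold higher, against 5.83%. Fgfr1 was 1.81 times as high with overexpression as with knockdown (1.49 to 2.21), the only gene with an interval above 1, against 9.66% of all genes. Intervals below 1 were found for 4 receptors, against 8.19%, at ratios of 0.408 for Pdgfra (0.271 to 0.606), 0.506 for Egfr (0.331 to 0.764), 0.619 for Met (0.476 to 0.802) and 0.638 for Pdgfrb (0.555 to 0.734). Thus 5 of the 6 receptors differed between the 2 Linc-RAM lines by more than counting error, 4 in one direction and Fgfr1 in the other. For none of the 4 ligands did the interval leave 1. The nearest was Hgf, with a ratio of 1.78 (0.987 to 3.34), and Fgf7 stood at 0.871 (0.556 to 1.37).

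Ligands were set against their receptors within each library, in pairs chosen after the values were seen. Hgf stood at 0.852 of the level of Met with overexpression, 0.296 with knockdown and 0.491 in the control. Between overexpression and knockdown this within-library ratio differed 2.88-fold (exact interval 1.49 to 5.69). Set against the control, overexpression gave a ratio 1.74 times as high (1.03 to 2.91) and knockdown one of 0.602 times (0.317 to 1.10). The Hgf to Met ratio was thus highest with overexpression and lowest with knockdown, although the difference between knockdown and control was within counting error. Fgf7, set against Fgfr1 although that is not its main receptor, stood at 0.251 of its level with overexpression, 0.523 with knockdown and 0.606 in the control. With overexpression this was 0.415 of the control (0.282 to 0.602), and with knockdown 0.864 (0.577 to 1.27). Hbegf stood at 0.785, 0.364 and 0.566 of the level of Egfr, and neither line differed from the control beyond counting error in this ratio (1.39, 0.591 to 3.04, and 0.644, 0.262 to 1.43). Egfr was at 0.385 of the level of Met with overexpression, 0.471 with knockdown and 0.902 in the control. Relative to the control this was 0.427 (0.273 to 0.658) and 0.522 (0.364 to 0.746). Egfr was therefore lower relative to Met in both lines, where Egfr had the lower level with overexpression and Met the higher level with knockdown.

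**Figure D3:**
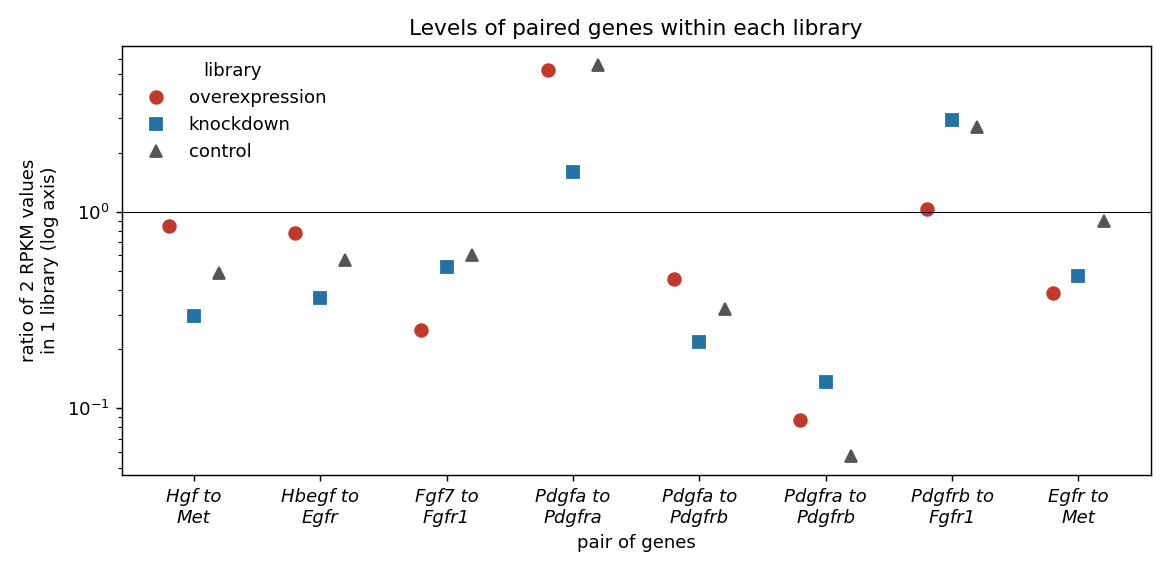
Ratio of the RPKM values of 2 genes within 1 library (log axis) for 8 pairs, in the overexpression (red circles), knockdown (blue squares) and control (grey triangles) libraries; such ratios do not depend on the scaling of a library. Hgf to Met is highest with overexpression (0.852) and lowest with knockdown (0.296), and Pdgfrb to Fgfr1 is 1.03 with overexpression against 2.94 with knockdown and 2.70 in the control.

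By level, Pdgfrb was first among the 10 genes in every library and Fgfr1 second, but with overexpression these first 2 did not differ beyond counting error (1.03 times, 0.886 to 1.21). Fgf2 and Fgfr4 held ranks 9 and 10 in every library, and the step between them was within counting error in each. In the control Fgf7, Met, Egfr, Hbegf, Hgf, Pdgfra followed Fgfr1 in that order, and the steps from Met to Egfr, from Hbegf to Hgf, from Hgf to Pdgfra and from Pdgfra to Fgf2 were within counting error. With overexpression only the steps from Fgfr1 to Fgf7 and from Hgf to Egfr exceeded counting error, so that Fgf7, Met and Hgf formed a middle group. With knockdown only those from Pdgfrb to Fgfr1 and from Fgfr1 to Met did. Hgf was at rank 5 with overexpression, against rank 7 with knockdown and in the control. Pdgfra was at rank 7 with overexpression and 5 with knockdown, against 8 in the control.

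Of the other ligands of these families, those of PDGF had the most RNA. Pdgfa was at 14.0 RPKM with overexpression, 10.5 with knockdown and 18.8 in the control (30, 20 and 98 reads), and its ratios were 0.746 (0.478 to 1.13) and 0.557 (0.326 to 0.908). Pdgfb, which binds both PDGF receptors, was at 1.29, 1.45 and 3.45 RPKM, and its ratios of 0.375 (0.0951 to 1.08) and 0.420 (0.107 to 1.21) came from 4, 4 and 26 reads. Nrg1, the neuregulin that binds ERBB3 and ERBB4, was at 1.36, 3.29 and 3.80 RPKM, and its ratios were 0.357 (0.124 to 0.845) and 0.866 (0.426 to 1.65). Of 14 such PDGF and EGF family ligands 6 passed the filter, of which 2 were at least 2-fold lower with overexpression and 1 with knockdown and 0 were higher in either, with medians of −0.51 and −0.47. The shares of all genes at least 2-fold lower were the 3.47% and 4.19% given above, and those at least 2-fold higher were 3.64% and 3.38%. Though all 6 ratios with overexpression were below 1, the intervals of 4 of them (Pdgfa, Pdgfb, Ereg and Nrg4) included 1. Pdgfc, named after its values were seen, was at 13.7 RPKM with overexpression, 10.9 with knockdown and 18.2 in the control. These levels came from 101, 72 and 328 reads. The intervals of its ratios lay below 1 with overexpression (0.594 to 0.941) and with knockdown (0.458 to 0.776). In a pair chosen in the same way, the level of Pdgfa was 5.24 times that of Pdgfra with overexpression, 1.60 times with knockdown and 5.56 times in the control, so that with knockdown this within-library ratio was 0.288 of the control (0.156 to 0.515). Of 20 FGF ligands other than Fgf2 and Fgf7, 15 were listed at 0 in all 3 libraries and 0 reached a mean of 1 RPKM.

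Of 12 other receptors and coreceptors 5 had a mean of at least 1 RPKM. Their median log2 ratio was −0.65 with overexpression and −0.18 with knockdown, and none was 2-fold away from the control in either line. Of all genes 3.64% were at least 2-fold higher and 3.47% lower with overexpression, and 3.38% and 4.19% with knockdown. Set against knockdown, 2 of the 5 were at least 2-fold lower with overexpression, against 5.11% of genes. These were Nrp2 (0.358, 0.306 to 0.417) and Pdgfrl (0.416, 0.236 to 0.713). With overexpression the intervals of Nrp2, Pdgfrl and Erbb2 against the control lay below 1, as did those of 8.61% of all genes. The intervals of Nrp1 (0.859, 0.704 to 1.04) and Fgfrl1 (0.909, 0.628 to 1.29), named after their values were seen, included 1. Nrp2, a neuropilin that also binds semaphorins and VEGF, was at 13.7 RPKM with overexpression, 38.2 with knockdown and 21.5 in the control, and its ratios were 0.638 (0.550 to 0.737) and 1.78 (1.60 to 1.98). Its order of libraries was that of Pdgfra, with knockdown highest. Pdgfrl, a PDGF receptor-like protein, was at 6.51, 15.6 and 11.95 RPKM, and its ratios were 0.544 (0.322 to 0.881) and 1.31 (0.896 to 1.88). Erbb2, the partner of the other ERBB receptors, stood at 0.623 (0.414 to 0.914) and 0.760 (0.513 to 1.10). Erbb4, named together with Erbb3 after the values were seen, was listed at 0 throughout, and Erbb3 had 4, 0 and 3 reads in the overexpression, knockdown and control libraries.

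Proteases that activate or release ligands included the largest differences among the pathway lists. Of 15 genes 11 passed the filter, with 2 at least 2-fold higher and 1 lower with overexpression, and 0 higher and 1 lower with knockdown (medians 0.14 and −0.04). Over all genes the shares at least 2-fold higher and lower were 3.64% and 3.47% with overexpression and 3.38% and 4.19% with knockdown. Plau, urokinase, which can activate pro-HGF, was at 42.6 RPKM with overexpression, 12.5 with knockdown and 15.9 in the control, and its ratios were 2.68 (2.19 to 3.28) and 0.787 (0.572 to 1.07). It thus shared with Hgf its highest level in the overexpression library. Adam12, a metalloprotease that can shed HB-EGF, was at 0.990, 6.45 and 6.65 RPKM, and its ratios were 0.149 (0.0838 to 0.246) and 0.970 (0.757 to 1.23). Adam8 rested on 17, 2 and 16 reads, with ratios of 2.59 (1.23 to 5.48) and 0.341 (0.0381 to 1.45). Adam10 and Adam17, the general sheddases of EGF family ligands, were named after their values were seen and stood between 1.07 and 1.10 of the control in both lines.

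Downstream of the receptors most genes lay near the control. Of 28 adaptors and members of the RAS and ERK cascade that passed the filter, each line had 1 gene at least 2-fold above and 1 below the control, with medians of 0.10 with overexpression and −0.01 with knockdown. These counts stand beside shares of all genes of 3.64% higher and 3.47% lower with overexpression, and 3.38% and 4.19% with knockdown. Rras2, a RAS-related GTPase, was at 17.7 RPKM with overexpression, 9.60 with knockdown and 8.05 in the control, and its ratios were 2.20 (1.62 to 2.99) and 1.19 (0.805 to 1.74). Ksr1, a scaffold of the ERK cascade, was at 1.16, 0.913 and 2.39 RPKM, and its ratios were 0.487 (0.220 to 0.972) and 0.382 (0.146 to 0.848). Frs3, an adaptor of FGF receptors, passed 2-fold with knockdown at 2.28, but from 10 reads and with an interval of 0.881 to 5.75. None of the 10 measured genes of the PI3K and AKT list was 2-fold from the control in either line.

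Of 12 genes that ERK signalling induces, 7 lay above and 5 below the control with overexpression, and 2 above and 10 below it with knockdown. The medians of these transcription targets were 0.11 and −0.20. With overexpression 0 were 2-fold from the control, against 3.64% of all genes higher and 3.47% lower. With knockdown 0 were at least 2-fold higher, against 3.38%, and 1 was at least 2-fold lower, against 4.19%. That gene was Etv4, an ETS factor that responds to FGF, at 8.74 RPKM with overexpression, 2.28 with knockdown and 4.76 in the control, and its ratios were 1.84 (1.21 to 2.78) and 0.479 (0.218 to 0.947). Its order of libraries was that of Fgfr1. Etv5 and Etv1 of the same list, named after their values were seen, did not differ from the control beyond counting error. Etv5 stood at 1.19 (0.648 to 2.10) with overexpression and 1.05 (0.538 to 1.95) with knockdown, and Etv1 at 0.713 (0.341 to 1.38) and 0.800 (0.383 to 1.55). Phlda1 stood at 1.57 (1.27 to 1.93) with overexpression and 1.03 (0.801 to 1.33) with knockdown, and Ier3, an immediate early gene, at 0.894 (0.657 to 1.20) and 0.598 (0.407 to 0.858). Of 13 measured feedback inhibitors of receptors and ERK, 0 were at least 2-fold higher in either line, 1 was lower with overexpression and 2 with knockdown. The shares of all genes are those just given, and the medians of the inhibitors were −0.40 and 0.02. With overexpression 4 of the 13 lay above the control and 9 below, and with knockdown 7 above and 6 below. Lrig3 was at 1.88 RPKM with overexpression, 6.05 with knockdown and 5.53 in the control. Its ratios were 0.339 (0.187 to 0.574) and 1.09 (0.759 to 1.55). Other inhibitors whose intervals with overexpression excluded 1 lay on both sides, and are named after their values were seen. Errfi1 (1.56, 1.35 to 1.80), Dusp6 (1.69, 1.19 to 2.40) and Spry2 (1.29, 1.004 to 1.64) lay above the control. Spred1 (0.615, 0.451 to 0.825) and Dusp7 (0.546, 0.289 to 0.965) lay below it, as Lrig3 did. Dusp5, an ERK phosphatase, had 4, 2 and 17 reads and Spry4, an inhibitor of RAS activation, 3, 2 and 12, and for both the ratios of knockdown to control (0.321 and 0.455) had intervals that included 1 (0.0360 to 1.35 and 0.0495 to 2.05).

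**Figure D4:**
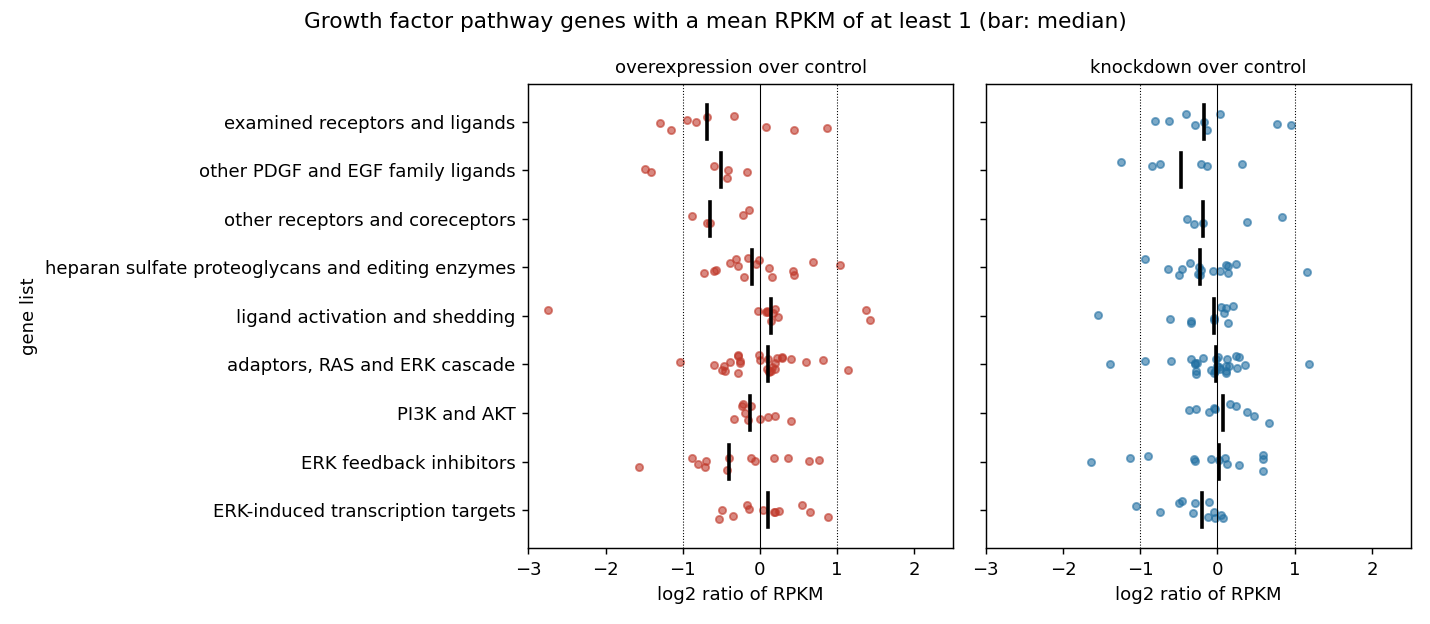
Log2 ratio of RPKM to the control with overexpression (left, red) and knockdown (right, blue) for each gene with a mean of at least 1 RPKM in 9 lists, the top row being the receptors and ligands examined here; black bars are medians and dotted lines mark 2-fold. With overexpression the medians of the top 3 rows are −0.68, −0.51 and −0.65, that of the feedback inhibitors is −0.40, and those of the cascade and the transcription targets are 0.10 and 0.11.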

How the data were processed

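RNA-seq reads of 3 C2C12 libraries (overexpression, knockdown and control, 1 each) were aligned to mm9 by the authors with TopHat, for which the submitters' processing notes give version 1.4.1, and were counted with DEGSeq, and the authors deposited RPKM values per gene. Not given in the sources used here are the annotation, the strand use and the treatment of multiply mapped reads. Ratios were taken from the deposited RPKM, with no added constant, for genes whose mean RPKM was 1 or more; values at 0 counted as lower and genes at 0 in the denominator were left out. The 2-fold criterion of the study's text and methods was used, whereas the legend of its heatmap of affected genes gives 1.5-fold with a limit on P. No p-value was computed here, since there are no replicates.

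RPKM made of whole reads keep their totals, so the total of each library was searched as the smallest at which genes below 3 RPKM came out whole (within 1e-05) at a GENCODE mm9 transcript length in at least 0.7 of the genes that did so at the best total. Whole genes were 27.7%, 28.0% and 25.2% in the overexpression, knockdown and control libraries, against 12.3%, 11.9% and 12.5% at 1 in 2 of the total. Reads per gene used a length from the annotation if it made the reads of all 3 libraries whole (3 of the 10 genes) and otherwise the shortest whole length from 200 to 20000 nt, so that reads are a lower estimate. The median gene had 37, 32 and 88 reads. The steps were tested on simulated data. Reads were not counted as molecules, and intervals and limits cover counting error only.

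The 10 genes and all gene lists were chosen with earlier results of these data known. Besides the 10 genes, the text names up to 3 genes of largest ratio to the control per pathway list, and others only where said. The result for 1 such gene is left out here. Alternatives were other filters, added constants, scalings and a 1.5-fold threshold. Promoters came from RefSeq (GRCm38.p6), other positions from GENCODE on mm9. Analyses ran in Python 3.11.15 with scipy 1.17.1, numpy 2.4.6 and pandas 2.3.3, and plots were drawn with matplotlib 3.10.9.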

Additional observations from a re-analysis of the deposited data

How the results depend on the processing

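With 1 library per condition no library could be left out, and no paired analysis was possible because each condition has 1 library. At a mean RPKM of at least 5, which keeps Fgfr1, Met, Pdgfrb and Fgf7, 0 of the examined genes were at least 2-fold lower with overexpression against the control and 0 against knockdown, in place of 2 and 2. With 1 RPKM added these counts were 0 and 1. At 1.5-fold, 1 gene was higher and 5 were lower with overexpression against the control, 2 were higher and 2 lower with knockdown against the control, and 2 were higher and 5 lower with overexpression against knockdown, in place of 0 and 2, 0 and 0, and 0 and 2. More genes of any kind pass this looser threshold. Shares of all genes were not computed for it or for the other alternatives, so these counts lack a background. Without a filter Fgfr4 joined the genes lower with overexpression (3 in all), and with values divided by their sum Pdgfrb did (3 in all) and Egfr joined those lower than with knockdown (3 in all). That scaling also put Met with overexpression just below the control (log2 ratio −0.01). All 150 ratios of single genes under 3 scalings and 2 added constants stayed within their counting intervals. The scalings shifted log2 ratios by at most 0.08 either way. Depth limits Fgf2, Fgfr4 and Hbegf most.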

Other observations

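Heparan sulfate proteoglycans and the enzymes that build and edit their chains, which hold FGF, HGF and HB-EGF at the cell surface, differed widely in level within each library. Of 20 listed genes 16 had a mean of at least 1 RPKM, with summed levels of 593, 515 and 583 RPKM in the overexpression, knockdown and control libraries. Gpc1 alone, named after its values were seen, gave 178, 129 and 178 RPKM of these sums. Gpc3 and Gpc4 were listed at 0 throughout, and Gpc2 and Hs6st2 had means below 1 RPKM. The median log2 ratios were −0.11 with overexpression and −0.22 with knockdown. In these lines 0 were at least 2-fold lower, against 3.47% and 4.19% of all genes. In each line 1 gene was at least 2-fold higher, against 3.64% and 3.38%. That gene was Sulf2 in both, an endosulfatase that removes 6-O-sulfate groups from heparan sulfate, at 6.75 RPKM with overexpression, 7.34 with knockdown and 3.28 in the control (65, 63 and 77 reads), and its ratios were 2.06 (exact 95% counting interval 1.46 to 2.90) and 2.24 (1.58 to 3.16). Its relative Sulf1 stood on the other side of the control, at 12.01, 10.4 and 19.9 RPKM, and its ratios were 0.604 (0.492 to 0.738) and 0.523 (0.416 to 0.653). The 2 endosulfatases thus differed from the shared control in opposite directions in both lines. Ext1, which polymerises the chains, was at 64.8 RPKM with overexpression, 34.3 with knockdown and 40.1 in the control, and its ratios were 1.61 (1.43 to 1.81) and 0.854 (0.732 to 0.994).

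In the PI3K and AKT list, Pik3r1, the regulatory subunit p85-alpha, was at 8.50 RPKM with overexpression, 14.9 with knockdown and 10.7 in the control, and its ratios were 0.792 (0.646 to 0.966) and 1.39 (1.17 to 1.65). Its level was thus highest with knockdown, as those of Met and Pdgfra were. Pik3cb, a catalytic subunit, had 13, 14 and 24 reads and ratios of 1.32 (0.617 to 2.70) and 1.59 (0.762 to 3.21).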
